A study of Mus musculus with 24 samples.

Results

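The lungs described here came from mice in which *Ror2* was to be removed from the distal lung epithelium and were taken at postnatal day 2 (P2). The titles call the 3 mutants Sox9Cre; Ror2f/f, and their 3 own controls are labelled WT. The genotype entries of these mutants name Vangl2f/f in place of Ror2f/f, so the title and the table's columns were followed, and the mutants carry that doubt. Cre is made from the *Sox9* locus, which is active in the SOX9+ distal epithelium and in some other tissues. The controls are not labelled as carrying Cre, so loss of *Ror2* and presence of the Cre allele cannot be told apart. RNA came from the left lobe, sequenced whole, and strain and sex are not given. The series holds 24 lungs in 8 groups, and these 6 form 1 comparison. The members are the 17541 of 23420 listed genes whose normalized count reached 1 in 3 or more of these 6 lungs. The other 5879 genes did not pass this filter. A normalized count is the number of reads on a gene divided by a size factor for that lung.

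ROR2 is a receptor tyrosine kinase for WNT5A that feeds into planar cell polarity (PCP), the system by which cells orient themselves within a tissue through VANGL, CELSR, PRICKLE and DVL proteins. Around P2 the mouse lung is made of saccules lined by flat alveolar type I (AT1) cells, which exchange gas, and cuboidal type II (AT2) cells, which make surfactant. Secondary septa then divide the saccules, and the myofibroblasts in these septa respond to platelet-derived growth factor A (PDGFA). The question asked of this comparison was how the transcripts of the lung differ at P2 when *Ror2* is missing from the epithelium.

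Between 16707335 and 19897606 reads fell on genes per lung. Reads could be recovered as whole numbers, and no lung was a copy of another. Within a group, Pearson's r between lungs across genes was 0.972 to 0.984, and between the groups it was 0.959 to 0.984. The first principal component held 43.8% of the variance, and mutant replicate 3 lay farthest from the controls on it (72.9, against 28.8 for mutant replicate 1, -8.28 for mutant replicate 2 and -47.8 to -14.5 for the controls). Judged by *Xist*, replicate 2 was female in each group (22660 and 24766 normalized counts) and the other 4 lungs were male (103 to 283). The defining markers of lung epithelium were high in all 6 lungs, with *Sftpc* at 137317 to 168128 and *Ager* at 27680 to 45098 normalized counts. The labels do not say whether the 6 lungs came from separate litters, so p-values measure the spread between these lungs.

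*Ror2* itself was only slightly lower in the mutant lobes. The controls had 451, 581 and 520 normalized counts of *Ror2* and the mutants 479, 349 and 366. Mutant replicate 1 lay above control replicate 1, so the groups overlapped. The log2 fold change of *Ror2* (mutant over control, on the log2(normalized count + 1) scale) was -0.38 (SE 0.157, 95% interval -0.75 to -0.01), with a limma adjusted p of 0.25 and an exact two-sided permutation p of 0.2. With 3 lungs in each group that test cannot go below 0.1. A level taken over the whole lobe also counts *Ror2* transcripts from the mesenchyme, and fewer cells of a type cannot be told apart from less RNA per cell in any value given here. *Ror2* lies at chr13:53109312-53286124 (GRCm38). *Sox9*, looked up because Cre is made from its locus, had 127, 153 and 129 normalized counts in controls and 104, 77.7 and 93.5 in mutants. For *Sox9* the groups did not overlap (log2 fold change -0.57, SE 0.189, limma adjusted p = 0.211).

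No gene passed the limma test (Benjamini-Hochberg adjusted p under 0.05 over the 17541 genes, 0%), and the lowest adjusted p was 0.203. The median log2 fold change was -0.01. An unadjusted p under 0.05 was reached by 3380 genes (19.3%), 1676 higher in the mutants (9.55% of genes tested) and 1704 lower (9.71%). All 3 mutant lungs lay above all 3 controls for 2358 genes (13.4%) and below them for 2145 (12.2%). These shares are the background for every list that follows. On the recovered reads, edgeR also called 0 genes (3344, or 19.1%, at an unadjusted p under 0.05). DESeq2 called 803 of the 13115 genes it gave an adjusted p (6.12%), 477 higher (3.64%) and 326 lower (2.49%). The DESeq2 count rested on which lungs were present: leaving out control replicates 1, 2 and 3 in turn gave 488, 47 and 412, and leaving out mutant replicates 1, 2 and 3 gave 70, 2543 and 141. With limma, leaving out mutant replicate 2 gave 859 genes, control replicate 1 gave 3 and each other lung 0. The 3380 genes became 1586 when control replicate 2 was left out, 1828 for mutant replicate 1 and 2209 for mutant replicate 3. In what follows, higher and lower describe the measured levels, and no gene is said to have passed the limma test.

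The Wnt ligands and receptors around ROR2 differed little, with *Wnt11* and *Prickle1* standing out of the 38 genes of the noncanonical Wnt and PCP list. *Wnt11*, a noncanonical Wnt ligand, had 555, 594 and 601 normalized counts in controls and 410, 444 and 355 in mutants (log2 fold change -0.54, SE 0.112). All 3 mutants were below the controls, with a limma adjusted p of 0.203 and a DESeq2 adjusted p of 0.0098. *Wnt5a*, the main ROR2 ligand, had 2528, 1943 and 2479 in controls and 2173, 2524 and 1415 in mutants, and the groups overlapped. *Wnt5b* had 101, 122 and 137 in controls and 82.3, 99.6 and 89.3 in mutants, a small difference with no overlap (log2 fold change -0.40, SE 0.194, limma adjusted p = 0.298). Among receptors, *Ror1*, the paralog of *Ror2*, had 409, 416 and 327 in controls and 304, 375 and 259 in mutants. *Ryk*, another Wnt receptor, was level at 3232 to 3396 in controls and 2979 to 3353 in mutants. *Fzd2* had 1603, 1451 and 1459 in controls and 1901, 1660 and 1726 in mutants (log2 fold change 0.23, SE 0.0834), above in every mutant, and *Fzd7* overlapped between the groups.

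Inside the PCP core, *Vangl2*, which the study places downstream of ROR2, had 270, 291 and 245 normalized counts in controls and 208, 251 and 236 in mutants (log2 fold change -0.21, 95% interval -0.53 to 0.11, limma adjusted p = 0.404). *Vangl1* gave -0.18 (-0.45 to 0.08) and *Celsr1* -0.02 (-0.29 to 0.25). None of these 3 separated the groups. *Prickle1*, whose product acts with VANGL2 at the membrane, had 2095, 1751 and 1259 in controls and 3038, 2431 and 2578 in mutants, 1.6-fold higher (log2 fold change 0.68, SE 0.185, DESeq2 adjusted p = 0.0289). *Dvl1*, a cytoplasmic transducer, had 1586, 1477 and 1436 against 1755, 1760 and 2066 (log2 fold change 0.31). Over the whole list, 7 genes were higher and 3 lower at an unadjusted p under 0.05, 7 lay above and 4 below without overlap, and the median was -0.06. The 7 became 2 when control replicate 2 was left out, 4 for control replicate 3 and 3 for mutant replicate 1. Of 30 genes of canonical Wnt signalling, 4 were higher and 2 lower, among them the feedback target *Axin2* (1420, 1419 and 1171 against 1719, 1521 and 1999).

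PDGF signals showed no separation between groups. *Pdgfa*, the ligand made by the epithelium, had 1134, 1299 and 1025 normalized counts in controls and 1275, 1472 and 1229 in mutants (log2 fold change 0.20, 95% interval -0.07 to 0.47). *Pdgfra*, its receptor on fibroblasts, had 3030, 2473 and 2419 against 2600, 3079 and 3935 (0.27, -0.12 to 0.65). The 6 PDGF ligands and receptors measured had log2 fold changes between 0.03 and 0.27, and 0 of 6 had an unadjusted p under 0.05. *Acta2*, the smooth muscle actin of myofibroblasts, had 17434, 13046 and 11818 in controls and 10538, 12998 and 5577 in mutants, with overlap. In the myofibroblast and smooth muscle list, 1 of 20 genes was higher and 0 lower (median -0.14).

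**Figure D1:**
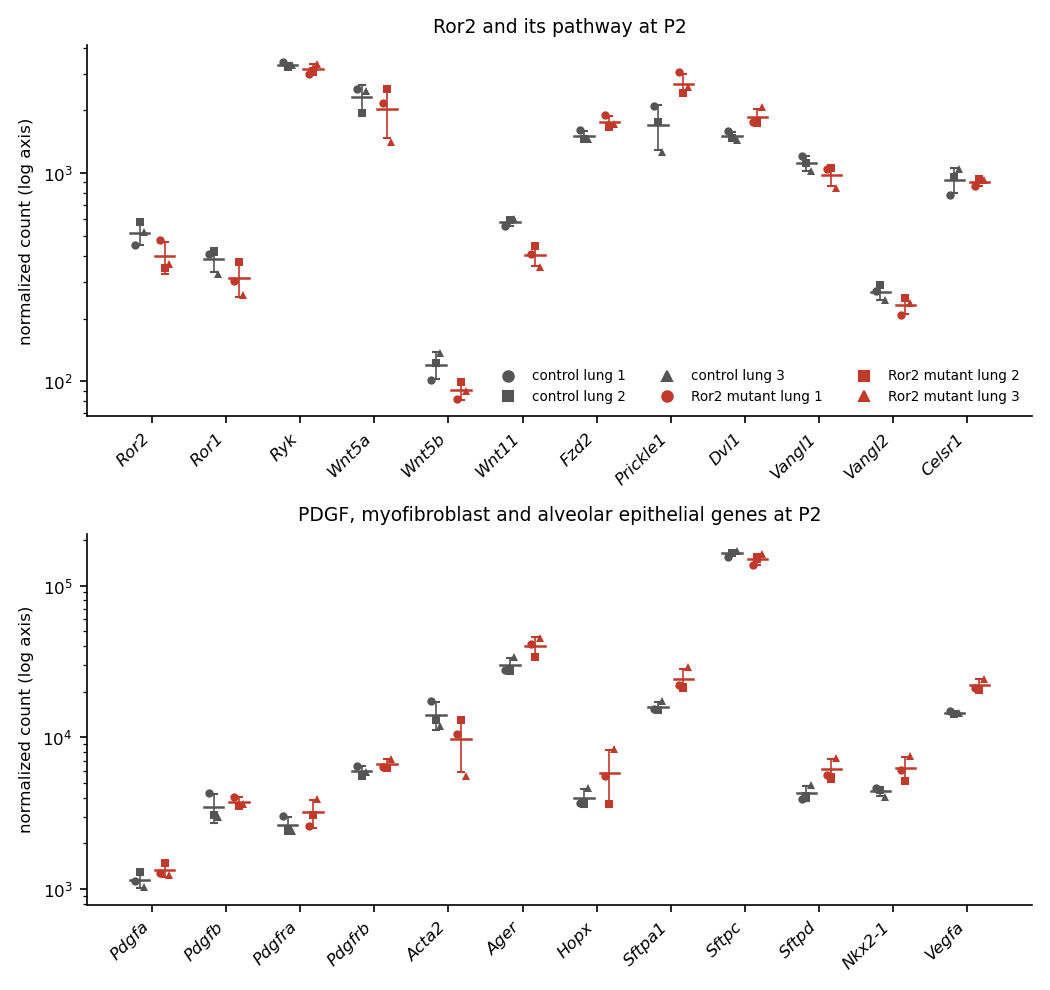
Normalized counts (log axis) in each of the 3 control and 3 mutant lungs for genes of the Ror2 pathway (top) and for PDGF, myofibroblast and alveolar epithelial genes (bottom), with bars at the mean and error bars of 1 SD. *Ror2*, *Vangl2*, *Pdgfa* and *Pdgfra* overlap between groups, while *Wnt11* lies lower and *Prickle1*, *Sftpa1* and *Vegfa* higher in every mutant lung.

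The genes that separated the groups with the least spread were not Wnt genes. They were named by their unadjusted p among genes with no overlap and a mean of at least 50 in the higher group, 10 in each direction, since no gene passed the adjusted test. The limma adjusted p of all 20 is 0.203. Their exact permutation p is 0.1, the smallest possible, which the condition of no overlap fixes in advance. *Efna1*, an ephrin ligand at the cell surface, had 1789, 1721 and 1735 normalized counts in controls and 2921, 2626 and 2956 in mutants, 1.62-fold higher (log2 fold change 0.69, SE 0.0741). *Stk36*, the fused kinase needed for motile cilia, had 359, 469 and 500 against 1155, 952 and 1062 (log2 fold change 1.26, SE 0.145). *Bmf*, a pro-apoptotic BH3-only protein, had 1136, 1045 and 1154 against 2033, 1771 and 2226, 1.80-fold higher. The 3 mutants of these genes lay close together, mutant replicate 2 included, which a choice by lowest p without overlap favours.

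*Itih4*, an acute phase protein, had 198, 222 and 185 normalized counts in controls and 672, 1058 and 568 in mutants, 3.66-fold higher. *Nupr1*, a stress-induced chromatin protein, was 1.71-fold higher at 2418, 2035 and 2553 against 1353, 1305 and 1419. *Proz*, the vitamin K-dependent protein Z of the clotting system, was weakly expressed in controls (28.9, 25.7 and 42.9) and 4.19-fold higher in mutants (168, 120 and 125). *Icam1*, an adhesion molecule that AT1 cells carry, had 3762, 3490 and 4401 against 6370, 6449 and 7492. *Pim1*, a kinase induced by cytokines, was 1.73-fold higher, at 778, 823 and 761 against a control mean of 457 ± 56.1 (SD, n = 3). The last of the 10 were *Phf1*, a Polycomb-associated protein (1.55-fold higher), and *Ppp1r9a*, the actin-binding protein neurabin (1.53-fold higher). Their DESeq2 adjusted p ran from 2.82e-10 for *Efna1* to 7.39e-05 for *Ppp1r9a*.

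Among the genes lower in the mutants, *C7*, a terminal complement component made by fibroblasts, had 998, 949 and 836 normalized counts in controls and 376, 513 and 324 in mutants, 2.33-fold lower (log2 fold change -1.22, SE 0.174). *Kcnk3*, a two-pore potassium channel, had 2069, 2050 and 2006 against 1577, 1459 and 1508. *Oxct1*, which starts the use of ketone bodies, had 2318, 2760 and 2374 against 1551, 1765 and 1602. *Slit3*, a guidance ligand for ROBO receptors, had 1827, 1890 and 1803 against 1340, 1449 and 1277. *Adra1b*, an adrenergic receptor, was 1.68-fold and *Dmpk*, a muscle kinase, 1.37-fold lower. *Cdh8*, a cadherin, had 44.3, 57.0 and 49.4 against 9.02, 15.2 and 5.25.

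*Zfp429*, a zinc finger gene at chr13:67387905-67399819 (GRCm38) on the same chromosome as *Ror2*, had 48.5, 44.1 and 82.9 normalized counts in controls and 12.4, 5.69 and 9.45 in mutants (log2 fold change -2.55, SE 0.393). Its middle lies 14.2 Mb from that of *Ror2*. *C1rb* had 198, 182 and 331 against 55.2, 81.5 and 46.2, but its near-identical neighbour *C1ra* went the other way (308, 361 and 482 against 795, 757 and 914), so the split of reads between the copies is uncertain. Their sum had 506, 543 and 812 normalized counts in controls and 850, 838 and 960.1 in mutants. Within 20 Mb of *Ror2* the groups did not overlap for 24.5% of the other tested genes, against 25.9% of all 16357 tested genes with a position.

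**Figure D2:**
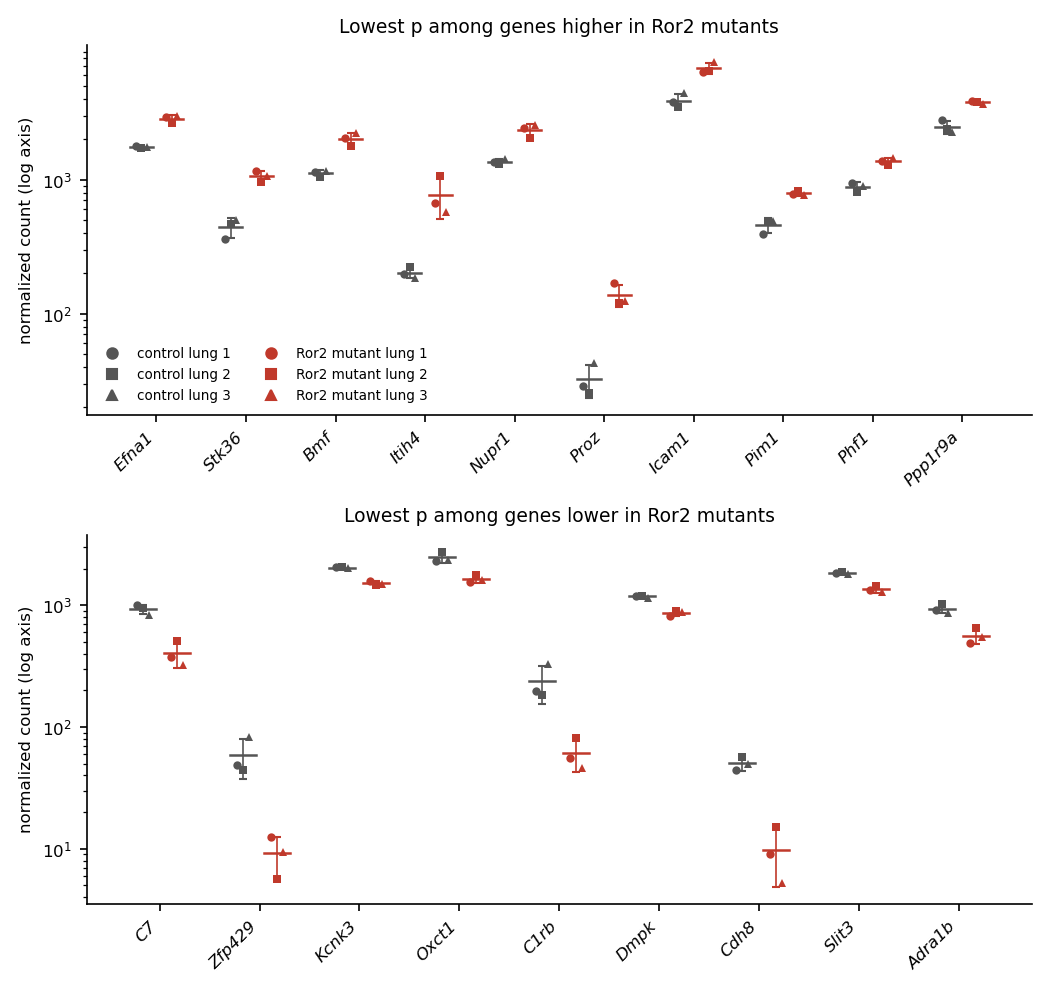
Normalized counts (log axis) per lung for the 10 genes higher and 9 of the 10 lower in mutants that had the lowest p among those with no overlap, with the mean and 1 SD for each group of 3. All mutant lungs of each gene lie on 1 side of all its control lungs, by construction of the rule, from 1.35-fold lower for *Kcnk3* to 5.85-fold lower for *Zfp429* and from 1.53-fold higher for *Ppp1r9a* to 4.19-fold higher for *Proz*.

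Genes of cell division had the lowest levels relative to controls of any large list, and they also varied most among the mutants. All 81 members of the mitosis and kinetochore list had a negative log2 fold change (median -1.75, range -2.35 to -0.18), and 75 were lower and 0 higher at an unadjusted p under 0.05. In 35 of 81 (background 12.2%) all mutants lay below all controls. DESeq2 called 13, a count that became 0 when control replicate 2 or mutant replicate 1 was left out, 2 for control replicate 1, 3 for mutant replicate 3 and 78 for mutant replicate 2. Taking each gene relative to its control mean, the median of the list was 0.14, 0.42 and -0.55 in the controls and -1.63, -0.51 and -3.05 in the mutants. Control replicate 3 and mutant replicate 2 therefore met in the middle, and mutant replicate 3 lay far below. Leaving out control replicate 1 reduced the 75 to 28, control replicate 2 to 15 and mutant replicate 1 to 34, and the list's median was -1.06 without mutant replicate 3.

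*Spc24*, a subunit of the NDC80 complex that ties microtubules to kinetochores, had 284, 325 and 185 normalized counts in controls and 55.2, 122 and 42.0 in mutants (log2 fold change -1.95, SE 0.411, DESeq2 adjusted p = 0.00208). *Nek2*, a centrosome kinase, had 454, 636 and 551 against 239, 330 and 142. *Cenpi*, which helps to build the centromere, had 335, 404 and 208 against 83.4, 174 and 49.4, and *Cdca3*, a trigger of mitotic entry, had 665, 916 and 416 against 163, 344 and 76.7. Each of the 4 separated the groups. *Mki67*, the usual proliferation antigen, did not, with 6688, 8076 and 3398 in controls and 1805, 4463 and 564 in mutants.

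DNA replication genes followed the same order of lungs with smaller differences. All 62 had a negative log2 fold change (median -0.97), 53 were lower and 0 higher at an unadjusted p under 0.05, and 27 lay below without overlap. *Pcna*, the sliding clamp of the polymerases, had 2614, 3054 and 1907 normalized counts in controls and 1133, 1838 and 1044 in mutants (log2 fold change -0.94, SE 0.249). *E2f7*, a repressor of the E2F family, had 495, 599 and 442 against 237, 366 and 199, and *Rrm1*, the large subunit of ribonucleotide reductase, 2419, 2868 and 1812 against 1153, 1734 and 1036. The 53 became 20 when control replicate 1 was left out, 16 for control replicate 2, 26 for mutant replicate 1 and 34 for mutant replicate 3.

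Promoters of mitotic genes are known for short motifs tied to cell cycle control, and 3 are printed because their genes were low in the same lungs. RefSeq windows of 300 bases (250 before and 50 after the start, GRCm38.p6) were searched on both strands for TTTGAA, the core of the cell cycle homology region, for CCAAT, and for the E2F forms TTCCCGCC, TTTCCCGC (which overlap each other) and TTTGGCGC, and for the E-box CACGTG. Of 70 windows of the 65 mitosis genes that matched by symbol, 67.1% held TTTGAA and 71.4% held CCAAT, against 17.9% and 37.4% of all 32851 windows and 12.7% and 36.9% of the 15894 windows of tested genes (12623 of 17541 matched). Both stood in 54.3%, against 6.95% of all windows and 4.96% of those of tested genes. In 60 windows of 50 matched replication genes the shares were 18.3% for TTTGAA and 58.3% for CCAAT, and the 3 E2F forms stood in 16.7%, 15% and 13.3%, against 2.19%, 1.07% and 0.514% of all windows and 3.47%, 1.67% and 0.818% of those of tested genes. CACGTG stood in 4.29% of mitosis windows, 11.7% of replication windows, 7.15% of all and 9.07% of those of tested genes. In 303 windows of genes that DESeq2 called lower, 15.5% held TTTGAA, 40.6% CCAAT and 9.57% both. In 486 windows of genes called higher, the shares were 10.3%, 33.3% and 2.88%. CCAAT also stood in 83.3% of the 18 windows of cholesterol synthesis genes. A match is a description of the letters only. The 3 mitosis members with the lowest p that hold both TTTGAA and CCAAT in the 250 bases before the start are shown from 5′ to 3′ along the gene, with those letters, read on either strand, in capitals. They lie at chr10:69352913-69353162 (*Cdk1*, the kinase that drives entry into mitosis), chr4:118437344-118437593 (*Cdc20*, an activator of the anaphase-promoting complex) and chr7:127042421-127042670 (*Kif22*, a chromosome-moving kinesin), all on the minus strand.
Cdk1: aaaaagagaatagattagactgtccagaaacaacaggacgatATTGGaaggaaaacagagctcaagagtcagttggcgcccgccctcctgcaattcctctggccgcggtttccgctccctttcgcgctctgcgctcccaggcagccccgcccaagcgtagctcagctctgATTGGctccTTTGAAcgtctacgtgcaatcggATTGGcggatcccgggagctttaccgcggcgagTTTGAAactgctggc
Cdc20: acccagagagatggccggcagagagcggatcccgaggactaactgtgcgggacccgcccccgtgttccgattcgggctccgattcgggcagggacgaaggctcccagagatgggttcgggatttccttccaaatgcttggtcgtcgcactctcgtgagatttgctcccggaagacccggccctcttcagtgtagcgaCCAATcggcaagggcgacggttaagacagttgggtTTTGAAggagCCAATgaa
Kif22: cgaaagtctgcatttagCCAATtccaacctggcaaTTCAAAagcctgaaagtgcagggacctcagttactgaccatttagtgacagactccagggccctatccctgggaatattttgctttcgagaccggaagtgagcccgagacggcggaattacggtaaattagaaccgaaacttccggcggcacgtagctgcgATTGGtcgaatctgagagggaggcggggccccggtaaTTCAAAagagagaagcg

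The 3 genes differed in size of effect in the order *Kif22*, *Cdk1* and *Cdc20*, by less than their standard errors. *Cdk1* had 1241, 1631 and 946 normalized counts in controls and 348, 824 and 186 in mutants (log2 fold change -1.72, SE 0.497). *Cdc20* had 901, 1081 and 596 against 325, 569 and 172 (-1.39, SE 0.422). *Kif22* had 729, 855 and 465 against 188, 444 and 90.3 (-1.75, SE 0.537). In each, mutant replicate 2 lay just under control replicate 3.

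Cholesterol synthesis and oxidative phosphorylation showed smaller but more even differences. Of 23 genes of the cholesterol synthesis list, 22 had a negative log2 fold change (median -0.45), 15 were lower and 0 higher at an unadjusted p under 0.05, and 16 lay below without overlap. DESeq2 called 11, which became 3, 1 and 5 when control replicates 1, 2 and 3 were left out in turn and 2, 14 and 3 for mutant replicates 1, 2 and 3. The list's median per lung was 0.04, -0.03 and -0.02 in controls and -0.54, -0.30 and -0.56 in mutants. *Hsd17b7*, a late enzyme of the pathway, had 509, 528 and 453 against 307, 302 and 210, and *Nsdhl*, which acts beside it, had 776, 724 and 705 against 473, 562 and 397. The list separated the groups in all 6 lungs, and its limma count of 15 ranged from 11 to 17 with single lungs left out.

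Of 75 nuclear-encoded subunits of the respiratory chain, 73 had a negative log2 fold change (median -0.26), 44 were lower and 0 higher at an unadjusted p under 0.05, and 54 lay below without overlap, against 12.2% of genes tested. *Ndufa4*, a small subunit now placed in complex IV, had 2030, 2052 and 2055 normalized counts in controls and 1509, 1661 and 1403 in mutants (log2 fold change -0.43, SE 0.0812). *Cox7b*, of complex IV, had 1860, 2071 and 1972 against 1296, 1580 and 1441, and *Uqcr10*, of complex III, 1097, 1196 and 1264 against 902, 920 and 901. Every mutant was below every control in these genes, by about the same ratio. The transcripts of this list are short (median 1801 bases of exon), and the fifth of tested genes with the shortest exons had a median log2 fold change of -0.04, against 0.02 in the fifth with the longest. Cytosolic ribosomal protein genes, which are as short (median 1776 bases), had a median of 0.10, with 6 of 78 higher and 0 lower. The part of transcript length in the respiratory chain values was not tested. The count of 44 was 29 without mutant replicate 1.

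**Figure D3:**
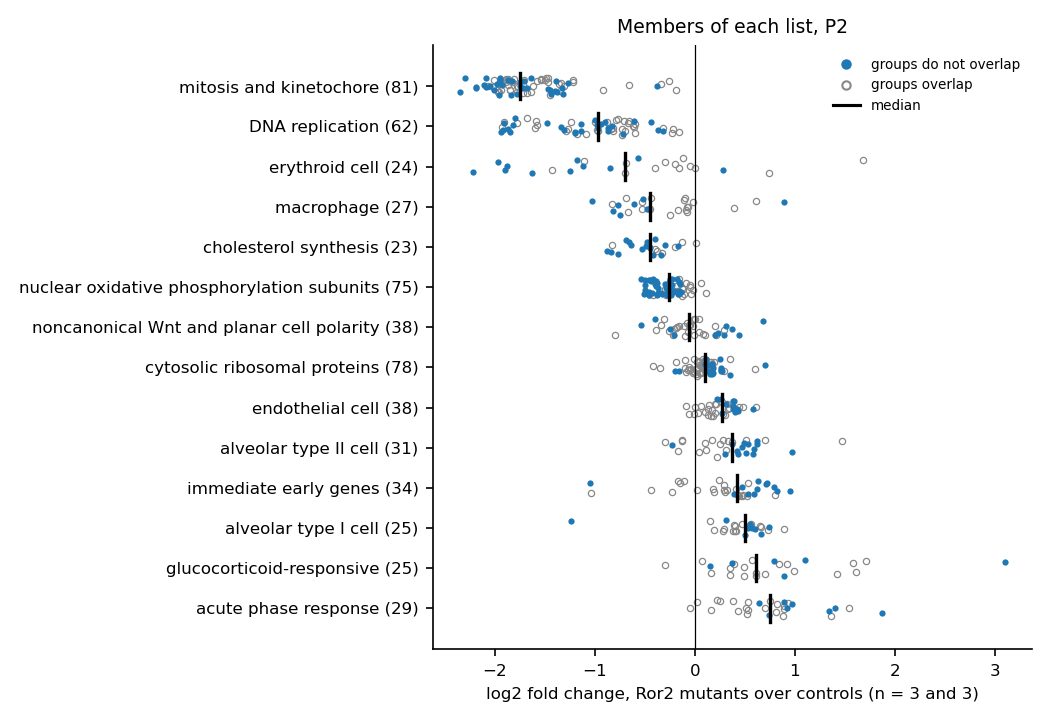
Log2 fold change (mutants over controls, 3 lungs each) of every tested member of 14 gene lists, with list sizes in brackets, filled points for genes whose groups do not overlap and a black bar at the median. The mitosis members spread from -2.35 to -0.18, oxidative phosphorylation subunits cluster near -0.26 with most points filled, and the medians of the alveolar lists lie to the right of 0.

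Genes of the alveolar epithelium were mostly higher in mutants. Of 25 AT1 genes, 24 had a positive log2 fold change (median 0.50), and 14 were higher and 1 lower at an unadjusted p under 0.05, against 9.55% and 9.71% of genes tested. *Vegfa*, the vascular growth factor that AT1 cells secrete, had 14793, 14156 and 14341 normalized counts in controls and 21195, 20411 and 24287 in mutants, 1.52-fold higher (log2 fold change 0.60, SE 0.0986, DESeq2 adjusted p = 1.45e-06). *Akap5*, an anchor of protein kinase A, had 8810, 8498 and 7951 against 13921, 10307 and 13172. *Gprc5a*, an orphan receptor, had 8599, 8411 and 9360 against 15175, 10526 and 16737. *Igfbp2*, a binding protein for insulin-like growth factors found in mature AT1 cells, was the exception, with 2217, 1331 and 1406 in controls and 854, 651 and 563 in mutants (log2 fold change -1.24, SE 0.227). The defining markers leaned up without separating the groups: *Ager* had 27747, 27680 and 34017 against 40858, 33592 and 45098 (0.41, SE 0.153), *Hopx* 0.48 (SE 0.277), *Pdpn* 0.28 (SE 0.118) and *Aqp5* 0.39 (SE 0.243). Leaving out control replicate 1 gave 8 in place of 14, control replicate 2 or mutant replicate 1 gave 6, and mutant replicate 3 gave 9.

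AT2 genes gave a similar picture, with 13 of 31 higher and 0 lower (median 0.37) and 13 above without overlap. *Slc34a2*, the phosphate transporter of AT2 cells, had 29022, 28041 and 30147 normalized counts in controls and 42780, 39035 and 49456 in mutants, 1.5-fold higher (DESeq2 adjusted p = 0.000188). *Slc6a14*, an amino acid transporter, had 775, 693 and 907 against 1490, 1210 and 2025. *Sftpa1* had 15429, 15097 and 17246 against 22187, 21512 and 28960 (1.51-fold higher), and *Sftpd* 3914, 4098 and 4832 against 5611, 5464 and 7307 (1.42-fold higher). *Sftpb* overlapped, and *Sftpc*, the most abundant of them, had 155105, 164935 and 168128 against 137317, 149505 and 161047 (log2 fold change -0.13, 95% interval -0.54 to 0.28). The hydrophilic collectins thus separated the groups, while the hydrophobic surfactant proteins did not. *Nkx2-1*, the transcription factor of lung epithelium, had 4645, 4511 and 4026 against 6087, 5176 and 7490 (0.49, SE 0.139), and *Abca3*, the lipid pump of lamellar bodies, 5065, 4997 and 5482 against 6861, 5788 and 8544. The count of 13 stayed between 11 and 16 with any lung left out, and the median was 0.23 without mutant replicate 3.

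**Figure D4:**
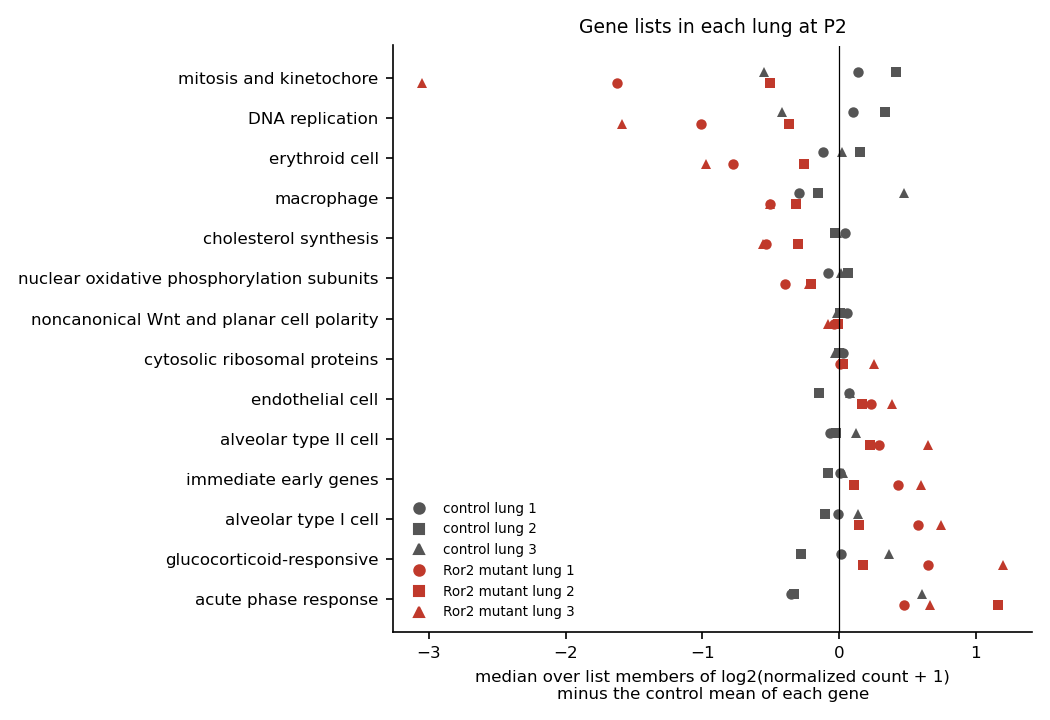
Median over each list's members of log2(normalized count + 1) minus the gene's control mean, for each control (grey) and mutant (red) lung, with a marker shape per replicate number. Mutant replicate 3 is lowest for mitosis at -3.05 and highest for AT1 genes at 0.75, mutant replicate 2 lies closest to the controls in both, and cholesterol synthesis separates the groups with mutants at -0.56 to -0.30.

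Vascular and Notch genes leaned up. Of 38 endothelial genes, 12 were higher and 0 lower at an unadjusted p under 0.05 (median 0.28), and 13 lay above without overlap. Among all genes tested, 9.55% were higher and 13.4% lay above. *Car4*, a carbonic anhydrase of capillary endothelium, had 2195, 1960 and 2413 normalized counts in controls and 2830, 2876 and 3141 in mutants (log2 fold change 0.43, SE 0.095), and *Fendrr*, a long noncoding RNA beside *Foxf1*, had 2594, 2259 and 1757 against 3357, 3155 and 3240. The count of 12 was 19 without control replicate 1. Of 18 Notch genes, 5 were higher and 0 lower, led by *Dll4*, the Notch ligand of sprouting vessels (1108, 1164 and 1267 against 1471, 1418 and 1717), and *Hes1*, a Notch target (1484, 1421 and 1286 against 2172, 1623 and 2003). The Notch count was 2 without control replicate 2. Of 20 FGF genes, 6 were higher and 0 lower, including the ligand *Fgf9* (55.7, 49.6 and 37.3 against 68.7, 78.7 and 86.1). The FGF count was 2 when control replicate 2, control replicate 3 or mutant replicate 3 was left out, and 3 for mutant replicate 1. None of these genes passed the limma test after adjustment.

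Genes that respond to acute stimuli were higher and uneven among mutants. In the immediate early list, 14 of 34 were higher and 1 lower (median 0.42), led by *Ier3* (981, 899 and 645 normalized counts in controls, 1732, 1409 and 1680 in mutants), an early survival gene, and *Junb* (1926, 1710 and 1948 against 3447, 2829 and 2397), a subunit of AP-1. *Egr3*, a zinc finger factor of the same kind, was the 1 lower, with 35.1, 51.5 and 36.3 against 19.2, 18 and 20. Without control replicate 3 the 14 became 9, and without mutant replicate 3 the median was 0.20. Of 25 genes that respond to glucocorticoids, 8 were higher and 0 lower (median 0.61, or 0.34 without mutant replicate 3 and 1.02 without mutant replicate 2). *Zbtb16*, a transcription factor strongly induced by the hormone, had 94.9, 71.7 and 82.0 in controls and 2586, 170 and 828 in mutants. *Fkbp5*, a co-chaperone of the receptor, had 602, 625 and 582 against 1440, 710 and 2124. In both, mutant replicate 2 was the lowest mutant and still above every control. Leaving out control replicate 1 or 2 turned the 8 into 5, control replicate 3 into 13, mutant replicate 1 into 4 and mutant replicate 2 into 17. The circadian list had 3 of 18 higher and 0 lower (median 0.23).

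In the acute phase list, 10 of 29 were higher and 0 lower (median 0.75), with *Itih4* first, then *Hpx*, which binds haem (23.7, 18.4 and 17.7 normalized counts in controls, 64.2, 45.5 and 53.6 in mutants), and *Socs3*, a feedback inhibitor of cytokine signals (573, 614 and 1074 against 1365, 1391 and 1522). Without control replicate 1 or mutant replicate 2 the 10 became 6, and leaving out control replicate 2 or 3 gave 4 or 17. Control replicate 3 was the highest control for this list, at 0.60 against -0.35 and -0.33.

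Mesenchymal, blood and neighbouring tissues gave fewer or lower genes. Of 23 elastic fibre genes, 2 were higher and 8 lower (median -0.13). Without mutant replicate 3 the median was -0.0034 and 4 were lower, and leaving out control replicates 1, 2 and 3 or mutant replicate 1 gave 1, 2, 4 and 5 lower. One of the 8 was *Emilin1*, a glycoprotein of elastic fibres (3856, 3165 and 3123 normalized counts in controls, 2473, 2931 and 1896 in mutants). Of 64 actomyosin genes, 2 were higher and 7 lower (median -0.11), and of 83 genes of vesicular transport 9 were higher and 11 lower (median -0.05). Among all genes tested 9.55% were higher and 9.71% lower, so *Acta1* and *Myl9* below describe single genes and not the list. The lowest of the actomyosin list was *Acta1*, the actin of skeletal muscle (33, 179 and 139 against 12.4, 16.1 and 3.15). *Myl9*, a regulatory myosin light chain of non-skeletal cells, had 5195, 4830 and 4779 against 3468, 3871 and 2249 (log2 fold change -0.66, SE 0.190). Summed levels of the 29 heart genes tested were 10833 to 34961 in controls and 11933 to 19651 in mutants, and those of 18 skeletal muscle genes 470 to 919 and 451 to 657. *Myh6*, a heart myosin, had 1397, 5927 and 4252 in controls and 3461, 3314 and 1708 in mutants, and the thymus gene *Ptcra* was listed at 0 in every lung. How much of these tissues was taken with the lobe, and its part in the muscle genes, was not tested.

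Of 24 erythroid genes, 12 were lower and 0 higher (median -0.69), such as *Slc4a1*, the band 3 protein of red cells (765, 953 and 845 normalized counts in controls, 159, 471 and 155 in mutants). The count was 7 without control replicate 2. Of 27 macrophage genes, 5 were lower and 1 higher (median -0.45), with *Pf4* at 370, 386 and 621 against 255, 327 and 214 and *Cd68* at 357, 397 and 605 against 299, 343 and 286. *Pf4* also belongs to the megakaryocyte and platelet list. The marker *Csf1r* overlapped between groups (1526, 1729 and 2319 against 1752, 1615 and 1830). Summed levels of the macrophage list overlapped as well, at 17163 to 29047 in controls and 19791 to 26823 in mutants. Control replicate 3 was again the highest control, and without it the list's median was -0.14 and 2 genes were lower. Leaving out control replicate 1 gave 8 lower, mutant replicate 1 gave 2 and mutant replicate 3 gave 1. The neutrophil (2 higher, 0 lower of 21), lymphocyte (0 and 0 of 26) and motile cilium (0 and 0 of 40) lists gave counts under the background, the last with a median of -0.05 although *Stk36* stands among the leading genes.

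The *Vangl2* mutants of the same age (Sox9Cre; Vangl2f/f, 3 lungs against 3 controls of their own) lack the proposed downstream gene and carry the same Cre. Their controls are not labelled as carrying Cre either. Gene loss and the shared Cre allele therefore cannot be told apart in either effect. The doubt over the genotype entries of the *Ror2* mutants, which name Vangl2f/f, bears on this comparison too. Among the genes tested in the *Vangl2* mutants, 3.59% passed the limma test. The difference of the 2 effects was tested over the 12 lungs in limma. Of 17137 genes that passed the filter in both tables, 0 had an adjusted p under 0.05 (0%) and 788 an unadjusted p under 0.05 (4.60%). The median log2 fold change of the mitosis list was -1.75 in *Ror2* and -1.71 in *Vangl2* mutants, that of the AT1 list 0.50 and 0.46, and that of oxidative phosphorylation -0.26 and -0.19, each set against its own controls. In these 3 lists, 0 of 81, 2 of 25 and 1 of 75 genes had an unadjusted p under 0.05 for the difference. Such low counts do not show that the effects are alike. For the *Ror2* mutants at P2 against P5, the median difference of the mitosis list was -1.11, and 1 of 81 genes reached that p. The oxidative phosphorylation median per lung was -0.44, -0.23 and 0.10 in *Vangl2* mutants and 0.08, -0.02 and -0.05 in their controls. *Vangl2* mutant replicate 3 thus lay above all of its controls. Several lists of inflammation and of airway cells lay apart. The acute phase median was 0.75 in *Ror2* and 2.37 in *Vangl2* mutants, with 12 of 27 genes lower in the *Ror2* effect and 0 higher at an unadjusted p under 0.05. The macrophage medians were -0.45 (-0.14 without *Ror2* control replicate 3) and 0.53 (11 of 27 and 0), those of club cell genes 0.09 and 1.04 (10 of 29 and 0), and those of neutrophil genes -0.01 and 1.5 (9 of 21 and 0). With other settings the *Ror2* acute phase median ran from 0.21 (male lungs only) to 1.18 (without control replicate 3). The *Ror2* neutrophil median ran from -0.35 (without control replicate 2) to 0.44 (without control replicate 3). For neutrophil genes *Ror2* control replicate 3 lay at 1.34, against -0.85 and -0.40 in the other *Ror2* controls. The 6 sex-linked genes had medians of -0.12 in *Ror2* and -4.14 in *Vangl2* mutants, and 3.52 in *Ror2* mutants at P5, so the sexes were not balanced between the groups of the other tables, and the part of sex in these differences was not tested.

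The gene with the lowest p for the difference was *Zfp429*, at -2.55 in *Ror2* and 0.68 in *Vangl2* mutants (difference -3.23, SE 0.451, limma adjusted p = 0.242). *Cfb*, complement factor B, was at 0.02 in *Ror2* mutants (95% interval -0.91 to 0.95) and at 2.39 in *Vangl2* mutants. *Sftpd* was at 0.51 and 1.55. *C7* was at -1.22 and -0.32. *Bmf*, *Proz*, *Dmpk* and *Kcnk3* were alike in size, with 0.85 and 0.87, 2.07 and 1.86, -0.45 and -0.51, and -0.43 and -0.62. For *Bmf* the 95% interval of the difference was -0.45 to 0.41, so effects that differ by that much are not told apart.

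At P5 the *Ror2* mutants were compared with their own controls after control replicate 1 was left out, since 48.7% of its genes were listed at 0 against 24.5% to 25.9% in the other 5 lungs, and 0.0351% of genes passed the limma test there. Over 11 lungs and 16925 genes, 0 had an adjusted p under 0.05 for the difference between ages (0%) and 1632 an unadjusted p under 0.05 (9.64%). The mitosis median was -1.75 at P2 and -0.61 at P5, the AT1 median 0.50 and 0.08, and that of cholesterol synthesis -0.45 and -0.27. For the difference between ages, 1 of 81, 5 of 25 and 2 of 23 genes of these lists had an unadjusted p under 0.05. The motile cilium list had a median of -0.05 at P2 and 1.16 at P5, with 32 of 40 genes lower in the P2 effect and 0 higher. The immediate early list went from 0.42 to -0.42, and 19 of its 34 genes were higher in the P2 effect at an unadjusted p under 0.05, with 0 lower. Oxidative phosphorylation went from -0.26 to -0.02, with 26 of 75 genes lower in the P2 effect. *Zfp429* was low at both ages, at -2.55 and -3.41, and *Kcnk3*, *Dmpk* and *Efna1* also had like effects (-0.43 and -0.46, -0.45 and -0.50, and 0.69 and 0.54). *Dll4*, the gene with the lowest p, was at 0.38 and -0.36 (difference 0.74, SE 0.124, limma adjusted p = 0.464).

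**Figure D5:**
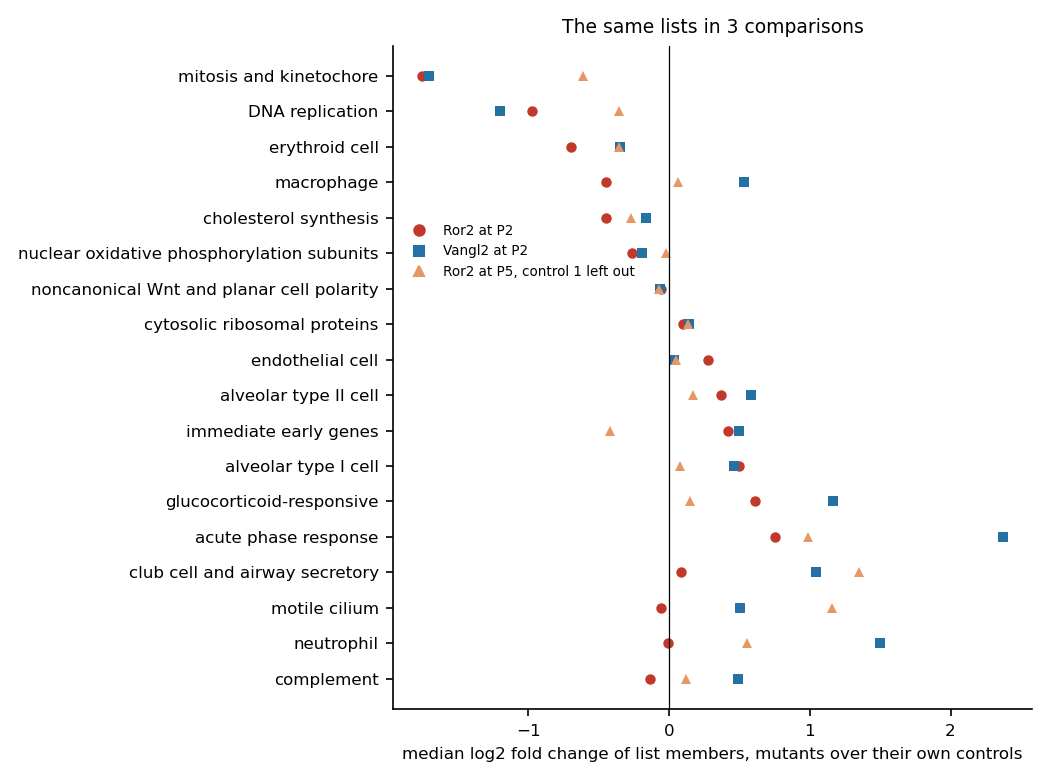
Median log2 fold change of 18 gene lists in the *Ror2* mutants at P2, the *Vangl2* mutants at P2 and the *Ror2* mutants at P5, each over its own controls. The mitosis medians of the P2 mutants lie together at -1.75 and -1.71, while acute phase genes lie at 0.75 in *Ror2* and 2.37 in *Vangl2* mutants.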

How the data were processed

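RNA of left lung lobes was sequenced by the authors, and per the labels the processing used the mm10 genome and DESeq2 (the aligner and counter are not given in the sources used here). The deposited signal values are reads per gene after division by each lung's size factor, here called normalized counts. The deposited fold changes and p-values of the authors were not used. Since the tables hold normalized and not raw counts, limma 3.58.1 (R 4.3.3, lmFit and eBayes with trend) was run on log2(normalized count + 1), with p-values adjusted across the whole table by the Benjamini-Hochberg method and a threshold of 0.05. Reads were recovered by dividing by each lung's step (100% of values within 0.02 of a whole number) for edgeR 4.0.16 and DESeq2 1.42.0. Depth was 16707335 to 19897606 reads per lung. Named genes were Ror2, 10 genes per direction with the lowest p, no overlap and a mean of at least 50, and up to 4 members of each list. For the differences of effects up to 10 genes were ranked by p. The members, 54 gene lists and motifs were chosen with earlier results of these data known. Scripts were tested on simulated data. Gene positions are from GENCODE M21 and promoters from RefSeq (both GRCm38). Of the genes these rules name, some are not reported here.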

Additional observations from a re-analysis of the deposited data

Results flagged for a closer look

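Among the genes with the lowest p for the difference between effects, up to 10 in each comparison, there were 13 in which all *Ror2* mutant lungs at P2 lay on one side of their controls and all lungs of another mutant group on the opposite side of theirs. The difference of the effects did not pass the adjusted limma test in any of them. A choice by lowest p for the difference favours groups on opposite sides, so the count of 13 does not tell how common such genes are. Against the *Vangl2* mutants at P2 these were *Zfp429* (log2 fold change 0.68 in *Vangl2* and -2.55 in *Ror2* mutants), *Clca4* (2.53 and -2.33), *Cst7* (1.42 and -1.32), *Siglech* (1.57 and -1.24), *Padi1* (0.95 and -1.54) and *Cd68* (0.62 and -0.51). *Clca4*, *Cst7*, *Siglech* and *Padi1* are weakly expressed, with means of at most 11.4 normalized counts in the higher group of the *Vangl2* table, where the pseudocount weighs on the fold.

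Against the *Ror2* mutants at P5 they were *Dll4* (-0.36 at P5 and 0.38 at P2), *Kcnq5* (-0.55 and 0.27), *Junb* (-0.59 and 0.62), *Cish* (-0.30 and 0.57), *Rusc2* (-0.34 and 0.82), *Rnf44* (-0.23 and 0.25) and *Klc2* (-0.34 and 0.16). The limma adjusted p of each difference between ages was 0.464, with 2 controls at P5. Among all genes tested at P5, all mutant lungs lay above both controls for 19.5% and below them for 18.7%. Groups of 3 lungs were not searched for single outlying lungs.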

How the results depend on the processing

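The count of genes with an adjusted p under 0.05, 0 in the test used, was 1 with a replicate block, 2 in limma without trend and 803 in DESeq2, and with single lungs left out it ranged from 0 to 859. It was 0 under the other pseudocounts, filters and scalings, with all 12 P2 lungs in 1 fit, in edgeR, and in 2 settings added after seeing the data (sex as a covariate, male lungs only). The count at an unadjusted p under 0.05 ranged from 1586 to 4694 with single lungs left out (4242 with the replicate block). For the difference from *Vangl2* mutants (788) it ranged from 423 to 1291 (1211 without *Vangl2* mutant replicate 2), and for that between ages (1632) from 949 to 2520 (1042 without P2 control replicate 2), or 1041 with P5 control replicate 1 included. The causes were not tested. *Ror2* kept its direction under all 20 alternatives, at -0.53 to -0.30 when a lung was left out and at -0.21 in male lungs only. The 20 other genes named by p also kept theirs. For these 20, the condition of no overlap fixes the direction in advance when lungs are left out. The mitosis median was -2.41 without mutant replicate 2 and -1.06 without mutant replicate 3. Deviations from the group means of same-numbered lungs correlated at 0.03, 0.21 and 0.12, each the highest for that mutant, which is a hint from the data only, so the numbers were not taken as pairs. With the replicate block the differences between effects still gave 0 genes at an adjusted p under 0.05, and no scaling moved the median of all genes by over 0.1 on the log2 scale. With 3 lungs a group and this spread between lungs, small changes in single genes could not be called.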

Other observations

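In the matrix fibroblast list 2 of 25 genes were higher and 2 lower at an unadjusted p under 0.05 (median -0.05), under the 19.3% of all genes tested, so the values that follow describe single stromal genes and not the list. *Dpt*, the matrix protein dermatopontin, had 9339, 9566 and 8561 normalized counts in controls and 4183, 6227 and 3803 in mutants, 1.98-fold lower (DESeq2 adjusted p = 0.000396). *Inmt*, a methyltransferase of lung stroma, had 567, 368 and 1017 against 2763, 2007 and 7429. *Bmp5*, a BMP ligand from the TGF-beta and BMP list, had 1685, 2129 and 1898 against 1056, 1573 and 938. Pericyte genes were split, with *Abcc9*, a subunit of potassium channels, at 634, 506 and 563 against 851, 757 and 845 and *Rgs5*, a regulator of G proteins, at 546, 433 and 577 against 322, 365 and 255. All 5 genes separated the groups, and none passed the limma test (adjusted p = 0.203).

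*Cxcl5*, a neutrophil chemokine also picked for its spread, had 9.28, 5.51 and 14.9 normalized counts in controls and 115, 771 and 16.8 in mutants. It was highest in mutant replicate 2, the mutant lung nearest to the controls in mitosis and AT1 genes. Mutant replicate 1 also lay far above the controls, and mutant replicate 3 just above the highest of them. *Zfp874b*, a zinc finger gene close to *Zfp429* and picked after its values were seen, had 191, 148 and 184 in controls and 303, 265 and 291 in mutants, the opposite side from *Zfp429*.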
